A study of Mus musculus with 7 samples.

Results

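Rbp4 and Ffar4 are neighbouring genes on mouse chromosome 19, and the open chromatin called around them in alpha, beta, and delta cells of the pancreatic islet is described here. The locus ran from 50 kb before the start of Ffar4 to 50 kb after the end of Rbp4, chr19:38047071-38175281 on GRCm38 (mm10), a stretch of 128211 bp. Its members were the distinct peaks of 7 ATAC-Seq peak lists that overlapped this stretch, 93 of 1190565 peaks in all. The peaks were chosen by the calls themselves, and the 2 genes were picked with earlier results of these data known, so presence, rank, and strength of the peaks are given as a description without a test.

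In ATAC-Seq, a transposase inserts adapters into DNA that is not packed away, and a peak is an interval in which the cuts pile up above the local background. The 7 libraries came from FACS-sorted cells of healthy triple transgenic mice, with a median of 20000 cells per library. All mice carried mIns1-H2b-mCherry, in which the promoter of an insulin gene labels beta cells, and Rosa-LSL-YFP, which is switched on by Gcg-Cre in glucagon-expressing alpha cells or by Sst-Cre in somatostatin-expressing delta cells. There were 2 alpha, 3 beta, and 2 delta libraries, called biological replicates by their labels and made from mice pooled by sex, whose age and strain background the labels do not give. A peak can therefore stem from the labelled cells of several animals. The sort separated beta cells from alpha or from delta cells of the same mice, so libraries of different cell types can share animals. In such bulk libraries, fewer cells with open chromatin and fewer cuts per cell cannot be told apart.

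RBP4 is the retinol binding protein that carries vitamin A through the blood, and it leaves the cell in a complex with transthyretin, the product of Ttr. It is made in large amounts by liver and fat, and within the islet its transcript is a well known mark of delta cells. FFAR4, also called GPR120, is a G protein-coupled receptor at the cell surface that senses long-chain fatty acids, and it is best known from gut, fat, and macrophages. Delta cells release somatostatin, which restrains both insulin and glucagon secretion from their neighbours.

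In the annotation, Ffar4 (ENSMUSG00000054200.7) lies on the plus strand at chr19:38097071-38114263 and Rbp4 (ENSMUSG00000024990.13) on the minus strand at chr19:38116629-38125281. The genes point towards each other, with their 3' ends 2365 bp and their 5' ends 28210 bp apart. Cep55, which encodes a protein of the last step of cell division, and the long noncoding RNA gene I830134H01Rik lie before Ffar4. Pde6c, which encodes a phosphodiesterase subunit of cone photoreceptors, starts 7499 bp upstream of Rbp4 and runs away from it. The small nucleolar RNA gene Gm23300 lies inside Cep55.

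The sequences at the starts are shown first because the strongest peaks of the 2 genes lay there. RefSeq gives 1 start for Ffar4 and 2 starts for Rbp4, which lie 510 bp apart. The stretches hold the 250 bases upstream of each start, 5' to 3' on the strand of the gene, with motif matches in capitals.
Ffar4 promoter, chr19:38096829-38097078, plus strand: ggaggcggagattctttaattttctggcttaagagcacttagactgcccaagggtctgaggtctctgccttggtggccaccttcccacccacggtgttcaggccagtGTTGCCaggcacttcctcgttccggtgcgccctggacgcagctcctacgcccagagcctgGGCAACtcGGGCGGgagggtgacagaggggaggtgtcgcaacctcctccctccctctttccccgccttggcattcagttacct
Rbp4 downstream promoter, chr19:38124812-38125061, minus strand: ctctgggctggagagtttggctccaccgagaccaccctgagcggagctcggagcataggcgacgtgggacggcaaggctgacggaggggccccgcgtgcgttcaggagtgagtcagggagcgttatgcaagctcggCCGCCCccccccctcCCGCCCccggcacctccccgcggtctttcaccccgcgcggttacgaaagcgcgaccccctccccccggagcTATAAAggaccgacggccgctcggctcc
Rbp4 upstream promoter, chr19:38125322-38125571, minus strand: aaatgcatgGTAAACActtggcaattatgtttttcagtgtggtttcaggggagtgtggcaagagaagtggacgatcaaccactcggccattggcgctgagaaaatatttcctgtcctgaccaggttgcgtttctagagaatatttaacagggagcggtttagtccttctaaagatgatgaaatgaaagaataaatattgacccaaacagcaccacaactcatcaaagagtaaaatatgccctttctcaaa

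The 2 Rbp4 stretches were unlike each other. The downstream one had a GC content of 70.8% and the upstream one of 40.8%, against a median of 52.4% over 32817 RefSeq promoters. The downstream stretch held TATAAA, the core of the TATA box, 28 to 23 bases before the start, and GGGCGG, the GC box, at 2 places on the opposite strand. The upstream stretch held only the forkhead word TGTTTAC, on the opposite strand. The Ffar4 stretch, with a GC content of 61.2%, held GTTGCC, a word known from RFX binding sites, once on each strand and GGGCGG once. No peak of any library reached into the upstream Rbp4 stretch, while the downstream stretch was covered, at least in part, by the peaks of both alpha and both delta libraries.

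Further sequences are shown for the 5 regions away from the starts of Cep55, Ffar4, and Rbp4 in which both delta libraries had a peak with a -log10 q of 2 or more. Each is the stretch of 300 bases around the strongest summit, the position of most cuts, on the plus strand and with motif matches in capitals.
Upstream of Ffar4 by 5.34 kb, chr19:38091585-38091884: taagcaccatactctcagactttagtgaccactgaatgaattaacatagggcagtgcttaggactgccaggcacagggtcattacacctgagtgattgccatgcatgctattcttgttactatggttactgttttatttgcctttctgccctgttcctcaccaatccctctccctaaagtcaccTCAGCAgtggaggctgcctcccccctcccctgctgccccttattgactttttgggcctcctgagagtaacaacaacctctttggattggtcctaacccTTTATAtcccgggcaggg
Ffar4 intron, chr19:38112639-38112938: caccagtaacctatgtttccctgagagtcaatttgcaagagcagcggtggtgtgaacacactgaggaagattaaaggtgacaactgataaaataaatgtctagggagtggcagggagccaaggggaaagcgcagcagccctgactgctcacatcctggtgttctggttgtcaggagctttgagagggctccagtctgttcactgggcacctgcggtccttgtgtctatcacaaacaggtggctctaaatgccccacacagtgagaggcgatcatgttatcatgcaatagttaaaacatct
Rbp4 intron, chr19:38120132-38120431: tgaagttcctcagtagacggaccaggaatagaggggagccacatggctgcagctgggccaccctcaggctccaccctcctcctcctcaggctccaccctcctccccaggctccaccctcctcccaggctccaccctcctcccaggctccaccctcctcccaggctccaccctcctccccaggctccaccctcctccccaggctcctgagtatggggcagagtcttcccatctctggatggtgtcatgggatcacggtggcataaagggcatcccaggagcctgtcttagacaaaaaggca
Upstream of Rbp4 by 6.83 kb, chr19:38131960-38132259: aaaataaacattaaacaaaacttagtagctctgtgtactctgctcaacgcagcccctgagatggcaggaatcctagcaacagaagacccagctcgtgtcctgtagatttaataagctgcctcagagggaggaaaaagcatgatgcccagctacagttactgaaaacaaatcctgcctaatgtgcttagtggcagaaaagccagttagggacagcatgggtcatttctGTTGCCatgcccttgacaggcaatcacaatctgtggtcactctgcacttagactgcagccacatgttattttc
Upstream of Rbp4 by 8.89 kb, in a Pde6c intron, chr19:38134026-38134325: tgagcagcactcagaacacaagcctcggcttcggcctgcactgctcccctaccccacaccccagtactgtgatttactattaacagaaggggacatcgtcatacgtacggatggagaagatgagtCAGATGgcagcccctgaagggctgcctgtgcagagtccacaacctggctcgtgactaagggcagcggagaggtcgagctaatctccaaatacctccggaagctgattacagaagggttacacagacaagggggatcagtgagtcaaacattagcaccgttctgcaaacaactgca

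Motifs were searched on both strands as 9 exact words, which were TAATTA (homeodomain factors), TGTTTAC (forkhead factors), CAGATG (basic helix-loop-helix factors), AGGTCA (nuclear receptors), AGATAA (zinc finger factors of the GATA family), TGCTGA (MAF factors), GTTGCC (RFX factors), TATAAA (the TATA box), and GGGCGG (the GC box). No matches overlapped in the sequences shown. The stretch 6.83 kb upstream of Rbp4 held GTTGCC, the stretch 8.89 kb upstream held CAGATG, and the stretch 5.34 kb upstream of Ffar4 held TGCTGA and TATAAA, each of the last pair on the minus strand. The stretches in the Ffar4 intron and in the Rbp4 intron held none of the 9 words. These words were common in general. Among 133698 windows of the same length around regions called in at least 2 libraries, GTTGCC was found in 12.3%, CAGATG in 25.02%, TGCTGA in 25.4%, TATAAA in 15.7%, AGGTCA in 17.9%, AGATAA in 15.0%, TAATTA in 8.17%, TGTTTAC in 6.64%, and GGGCGG in 13.6%. Among the RefSeq promoter stretches of 250 bases, GGGCGG was found in 32.7%, TATAAA in 12.4%, GTTGCC in 10.4%, and TGTTTAC in 3.16%. A match describes the letters only.

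The stretch in the Rbp4 intron differed in kind from the others, since it holds a tandem repeat. Its commonest 10-letter word occurred 7 times, while no such word occurred more than once in the other 4 stretches. At least 7 copies were found in 6.24% of the windows around regions called in at least 2 libraries. Soft-masked bases, those marked as repeats in the genome sequence, made up 45.0% of the stretch, a share reached by 15.1% of these windows.

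Peaks of the locus were unevenly spread over the cell types. The alpha libraries had 11 and 10 peaks in the locus, the beta libraries 31, 5, and 8, and the delta libraries 14 and 14. A peak is called strong here if its -log10 q was 2 or more, which is a false discovery rate of 1% or less in the estimate of the peak caller. Of strong peaks, 8 and 8 were left in alpha, 1, 1, and 1 in beta, and 10 and 8 in delta cells. As shares of all strong peaks of a list, these were 0.0154% and 0.0163% in alpha and 0.0213% and 0.0192% in delta. In beta the shares were 0.00386%, 0.00312%, and 0.00263%. Thus the counts of the beta libraries lay below those of every alpha and delta library once weak peaks were set aside, whereas beta 1 had the most peaks when all were counted. The plot of peak counts per library shows both counts side by side.

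**Figure D1:**
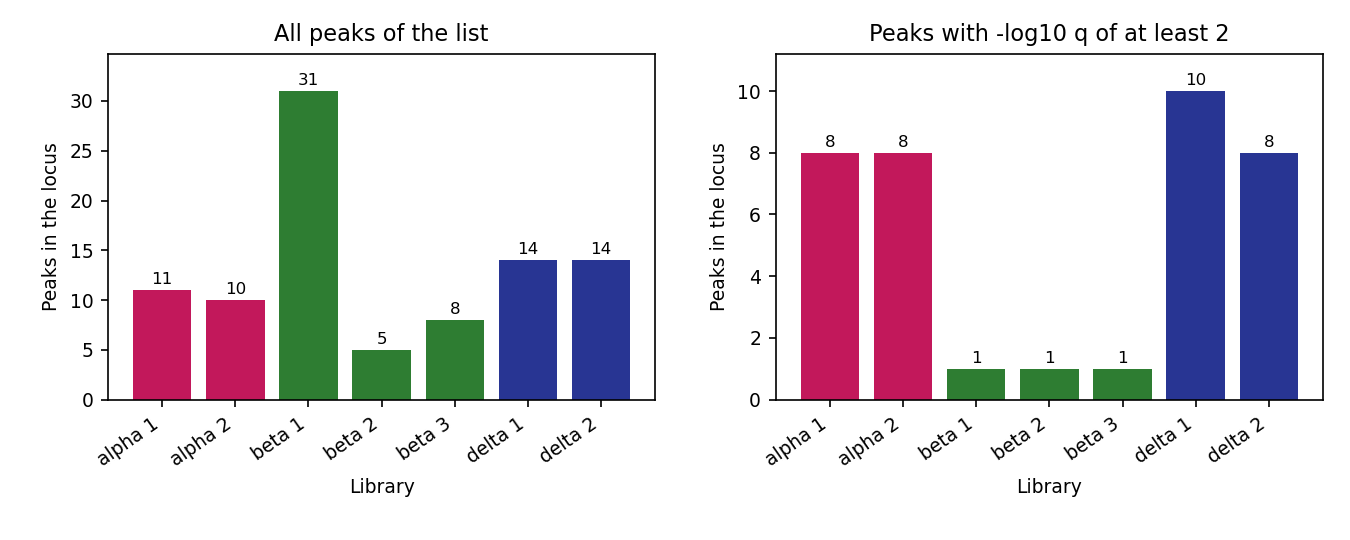
Number of peaks in the Rbp4 and Ffar4 locus in each of the 7 libraries, for all peaks of a list (left) and for strong peaks, those whose -log10 q is 2 or more (right), with bars coloured by cell type. Beta 1 has 31 peaks on the left and 1 on the right, and the alpha and delta libraries keep 8 to 10 on the right.

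The 31 peaks of beta 1 were mostly of 1 kind. Of these, 28 had the smallest width of 200 bp and 26 had the same -log10 p, a value shared by 73.0% of all peaks in that list. The commonest value of each of the other 6 lists was held by 19.5% to 38.5% of their peaks. Only 7 of the 31 regions of beta 1 (22.6%) were also called in another library. By comparison, 12 of 13 regions of each delta library were shared with another library (92.3%), as were 9 of 12 and 9 of 10 in alpha, 2 of 5 in beta 2, and 5 of 8 in beta 3. The same share over each whole list was not computed, so these shares cannot be called a trait of the locus. A percentile is used below to compare peaks between lists, and it is the share of a list's peaks with a lower -log10 p. In beta 1, where most peaks share 1 value, a -log10 q of 1.10 already gave a percentile of 87.7. A -log10 q of 2.32 gave 46.5 in delta 2. Percentiles of beta 1 are therefore not directly comparable with those of the other lists. The peaks of the locus had a median percentile of 73.0 and 71.8 in alpha, 11.6, 43.8, and 29.4 in beta, and 83.9 and 53.2 in delta libraries.

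Strong peaks were fewer in the beta lists across the genome as well. A TSS peak is one that lies no more than 1 kb from the start of a gene, and a strong one was found at 53.6% and 56.0% of 21911 protein-coding genes in alpha, 37.9%, 39.3%, and 47.6% in beta, and 53.3% and 50.8% in delta libraries. The part of this difference in the weak calls of the locus was not tested. The study's table of library metrics lists the fewest uniquely mapped reads for beta 1 and beta 2, followed by delta 2 and beta 3, and more for alpha 1, alpha 2, and delta 1. The part of this depth in the missing and weak beta peaks was not tested either, and an absent peak could not be told from one below detection. The names of the 3 beta files state alpha or delta. Beta cells were sorted from both the Gcg-Cre and the Sst-Cre mice. Whether such a name refers to the mouse line was not tested, and the samples were grouped by label.

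The defining markers were checked by their TSS peaks. Gcg, the glucagon gene, had strong peaks in both alpha libraries (fold enrichment 8.60 and 8.14) and a lower one in delta 2 (4.0), with no peak in beta cells. The delta cell transcription factor gene Hhex had strong TSS peaks in both delta and both alpha libraries, and a weak one in beta 1. At Sst, the somatostatin gene, the peaks of delta 1 and delta 2 were weak, with a -log10 q of 0.951 and 0.966, and the peak of beta 1 alone was strong. The insulin gene Ins1 had strong peaks in beta 1, beta 3, and delta 1 and not in beta 2, and Ins2 had a weak peak in beta 3 alone. Thus the TSS peaks at the hormone genes followed the labels for Gcg and only in part for Ins1. At Sst the strong peak was in a beta and not in a delta library, and Ins2 had no strong TSS peak. TSS peaks were sought only around the outermost annotated 5' end of a gene, so a peak at a more distant transcript start was not counted. The study reports chromatin that was open at Gcg in alpha, at Sst in delta, and at Ins2 in beta cells. Of the markers of acinar, duct, endothelial, and immune cells, 14 in all of which Amy2b was not matched, only Cftr (both delta libraries) and Kdr (delta 1) had a strong TSS peak.

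The start of Rbp4 was called open in alpha 1, alpha 2, delta 1, and delta 2, and in no beta library. Fold enrichment over the local background of the same library was 7.78 in alpha 1, 5.88 in alpha 2, 5.98 in delta 1, and 9.30 in delta 2. The -log10 q was 9.67, 6.204, 6.12, and 12.8, and the percentile 89.1, 80.3, 84.2, and 86.8, in the same order. The alpha and delta values overlapped on each of these scales, so the start of Rbp4 was open in alpha cells to a degree that the lists do not set apart from delta cells. Over all protein-coding genes, 108 (0.493%) had a TSS peak in exactly these 4 libraries, and 2.05% did when only strong peaks were counted.

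Ffar4 had a TSS peak in the same 4 libraries and a weak one in beta 1. Fold enrichment was 6.34 in alpha 1, 5.91 in alpha 2, 8.82 in delta 1, and 9.41 in delta 2. In beta 1 it was 1.8, on a peak of 200 bp with a -log10 q of 0.0774. The -log10 q was 6.35 and 5.99 in alpha and 11.8 and 12.9 in delta libraries, so both delta values were above both alpha values. The percentiles were 84.4 and 80.0 in alpha, 11.6 in beta 1, and 90.8 and 87.0 in delta libraries, with the same order. Over all protein-coding genes, 299 (1.36%) had TSS peaks in the same 5 libraries as Ffar4.

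Within the start of Ffar4, alpha and delta libraries differed in where the strongest summit lay. In delta 1 and delta 2 it lay 66 and 56 bp upstream of the 5' end of the gene, inside the promoter stretch shown above. In alpha 1 and alpha 2 it lay 359 and 364 bp downstream. Each cell type also had traces of the other position. Alpha 2 had a further summit 57 bp upstream with a fold enrichment of 4.17 and a -log10 q of 2.82, against 5.91 and 5.99 at its downstream summit. The delta libraries had separate peaks 352 and 409 bp downstream, with a fold enrichment of 3.49 and 3.57 and a -log10 q of 1.75 and 1.81. Alpha 1 had no summit upstream of the start, and its peak began at the 5' end itself. With 2 libraries per cell type, this shift is a description of 4 libraries.

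At Rbp4 the strongest summits of the 4 libraries lay 391 to 546 bp downstream of the annotated 5' end. They lay much closer to the start of another annotated transcript, at base 38124828, with alpha 1 and alpha 2 at 62 and 16 bp upstream of it and delta 1 and delta 2 at 50 and 93 bp downstream. The downstream RefSeq start used above is 470 bp from the annotated 5' end. The strongest summits of both alpha libraries fell inside the downstream promoter stretch, and those of both delta libraries fell after its start. Alpha 1 had a further summit 237 bp downstream of that transcript's start with a fold enrichment of 4.44. A peak of beta 1 lay 679 bp downstream of that start, with a fold enrichment of 1.8, outside of the 1-kb window around the 5' end of the gene. With any transcript start used, Rbp4 had a TSS peak in 5 libraries instead of 4.

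**Figure D2:**
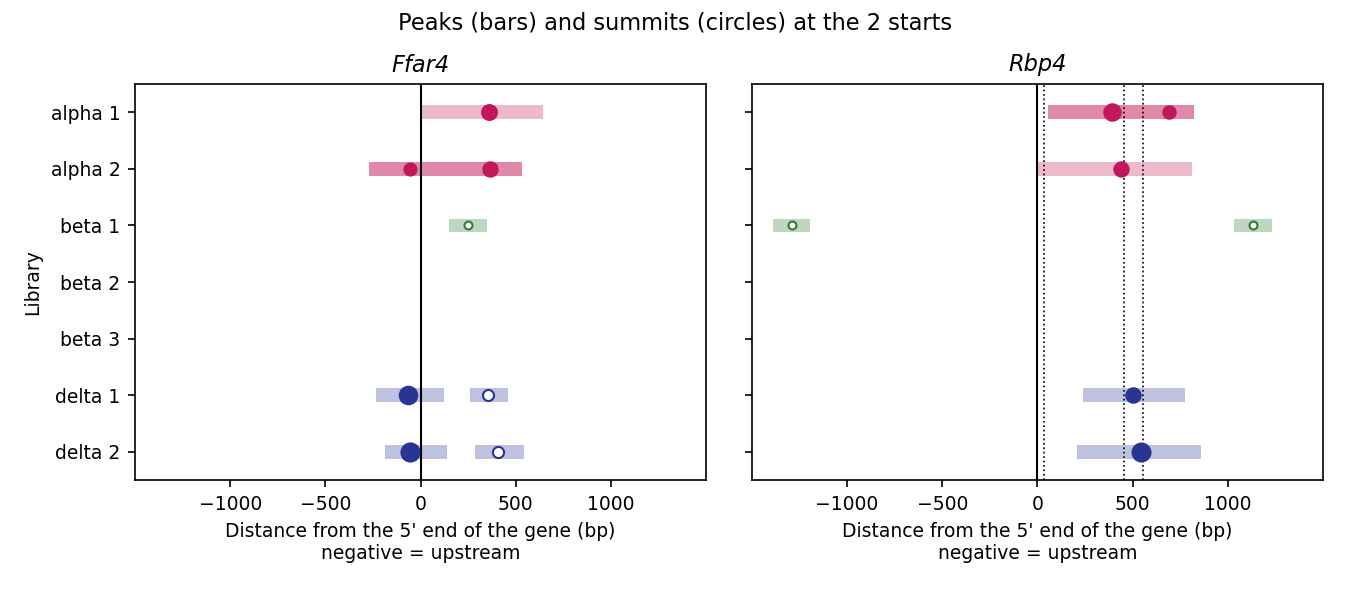
Peaks (bars) and summits (circles) of each library around the 5' ends of Ffar4 and Rbp4, with the distance from the 5' end in bp on the x axis, upstream to the left. Circle area grows with fold enrichment, filled circles are strong peaks (-log10 q of 2 or more), the solid line is the 5' end, dotted lines are further transcript starts, and darker bars hold 2 summits. At Ffar4 the strongest delta summits lie upstream at 66 and 56 bp and the strongest alpha summits downstream at 359 and 364 bp, and at Rbp4 the summits gather 391 to 546 bp downstream.

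Merging peaks that overlap by at least 1 bp gave 51 regions in the locus. Of these, 36 were called in 1 library, 24 of them in beta 1 alone, and 15 in at least 2 libraries. Genome-wide, 133698 of 834695 merged regions were called in at least 2 libraries. Both delta libraries shared 11 regions and both alpha libraries 7, and all 7 regions of both alpha libraries were also regions of both delta libraries. Over the whole genome, 33.6% of regions called in at least 2 libraries were called in both delta and 34% in both alpha libraries, and 67% of those in both alpha libraries were also in both delta libraries. The remaining 4 regions of both delta libraries had a peak in no alpha library (3) or in alpha 2 alone (1). At least 2 beta libraries shared 2 regions, and all 3 beta libraries shared 1. No region was called in both alpha libraries alone or in beta libraries alone by at least 2 of them.

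**Figure D3:**
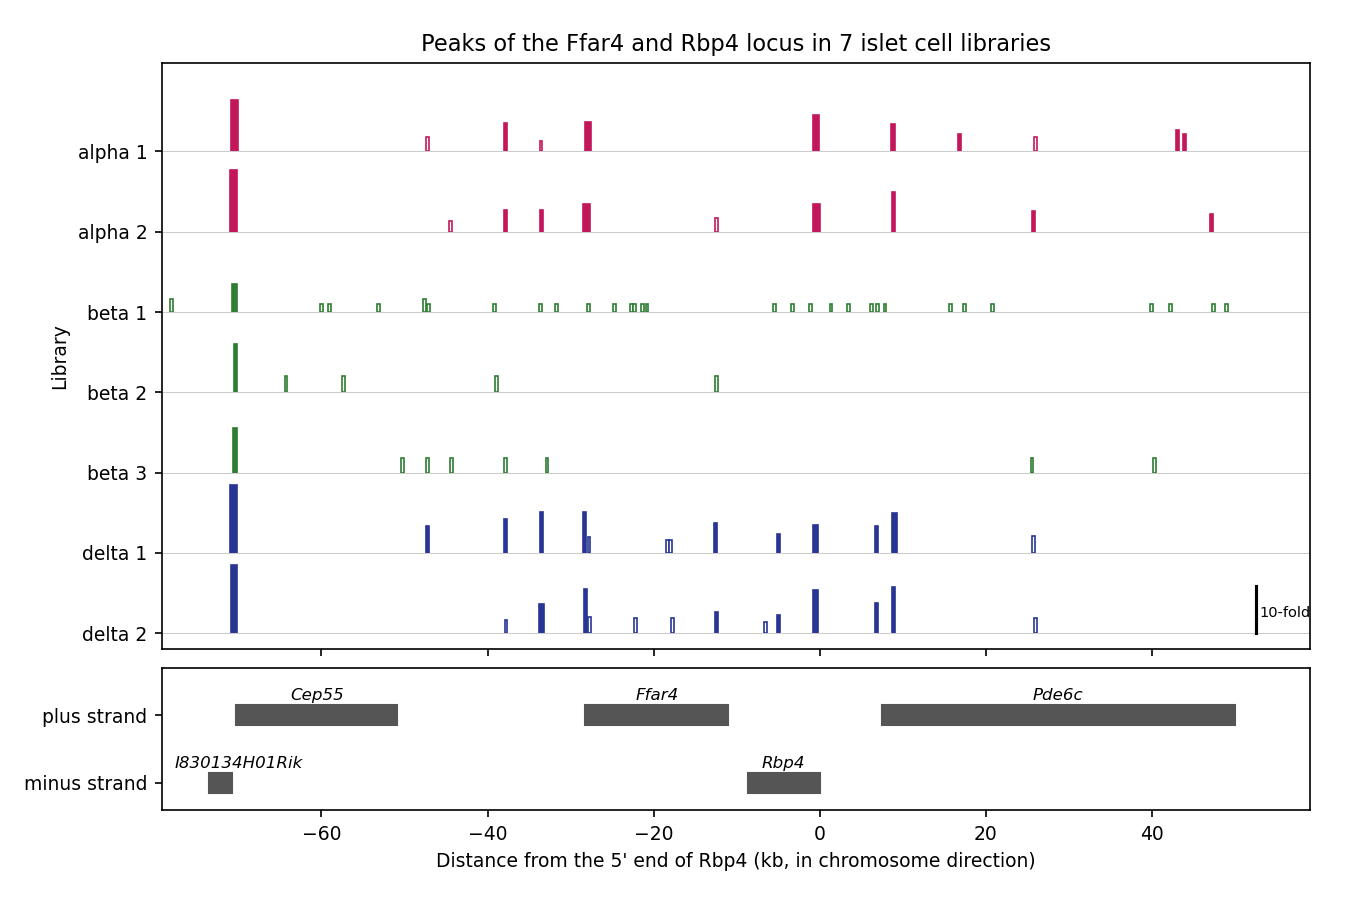
Peaks of the 7 libraries along the Rbp4 and Ffar4 locus, with the distance from the 5' end of Rbp4 in kb on the x axis, in chromosome direction. The height of a bar is the fold enrichment (scale bar, 10-fold), narrow peaks are widened to be visible, filled bars are strong peaks (-log10 q of 2 or more), and the lower panel shows the genes by strand without Gm23300. Filled beta bars stand only at the start of Cep55, while alpha and delta bars stand at Ffar4, at Rbp4, and 8.89 kb beyond the start of Rbp4.

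The 1 region called in all 7 libraries was the shared start of Cep55 and I830134H01Rik, at chr19:38054238-38055257. Its fold enrichment was 10.9 and 13.1 in alpha, 6.06, 10.3, and 9.49 in beta, and 14.4 and 14.5 in delta libraries. The percentile was 92.9 or more in each library, so the beta lists did hold a strong peak within the locus. Of regions called in at least 2 libraries over the whole genome, 13.3% were called in all 7, and 21.6% when only strong peaks were merged. This start was the only region of the locus with a strong beta peak.

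Called in both alpha and both delta libraries and in no beta library were 2 regions, the start of Rbp4 and a region in an intron of Pde6c at chr19:38133924-38134643. This share of the 15 regions stands beside 1.43% for the whole genome. The Pde6c region lay 8.89 kb upstream of the 5' end of Rbp4. Its fold enrichment was 5.88 in alpha 1, 8.44 in alpha 2, 8.52 in delta 1, and 9.78 in delta 2, with percentiles of 82.2, 87.0, 90.5, and 88.4. The delta values were the higher ones, though alpha 2 and delta 1 were close. Counted by strong peaks, the start of Ffar4 joined them, which made 3 of 9 regions, beside 5.24% for the whole genome.

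Called in both delta libraries and in no other library were 2 regions, beside 2.06% of the regions called in at least 2 libraries over the whole genome. The first lay in an intron of Rbp4 at chr19:38120106-38120387, 4999 bp downstream of its 5' end. Fold enrichment there was 3.96 in delta 1 and 3.93 in delta 2, with a -log10 q of 2.56 and 2.32 and percentiles of 71.5 and 46.5. This is the region of the tandem repeat shown above, with the delta summits at bases 151 and 113 of the printed stretch. Whether the repeat affects how reads were placed there was not tested. The other region lay over a coding exon of Ffar4 at chr19:38107161-38107536, where fold enrichment was 2.87 and 3.28 and the -log10 q 0.951 and 1.79, so neither peak was strong. The 2 delta summits there lay 171 bp apart.

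With weak peaks set aside, 3 regions were called in both delta libraries alone, beside 4.68% for the whole genome. They were the Rbp4 intron, a region between Rbp4 and Pde6c, and an intron of Ffar4. The region between Rbp4 and Pde6c, at chr19:38131915-38132311, lay 6.83 kb upstream of Rbp4 and 671 bp upstream of Pde6c. Its fold enrichment was 5.75 in delta 1 and 6.52 in delta 2, with a -log10 q of 5.54 and 7.09. Beta 1 had a 200-bp peak there with a fold enrichment of 1.8, and neither alpha library had a peak. It is the TSS peak of Pde6c by the 1-kb rule, with percentiles of 83.5 and 76.0 in delta cells.

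The region in the last part of Ffar4, an intron at chr19:38112579-38112959, lay 15.7 kb downstream of the start of Ffar4 and 12.5 kb from the 5' end of Rbp4. Fold enrichment was 6.32 in delta 1 and 4.62 in delta 2, with a -log10 q of 6.65 and 3.53. Alpha 2 and beta 2 had 200-bp peaks there, with a fold enrichment of 2.93 and 3.39 and a -log10 q of 1.02 and 1.82. Alpha 1, beta 1, and beta 3 had no peak. The delta values thus lay above those of the other libraries with a peak, and the summits of the 4 libraries lay within 54 bp.

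A pair of regions upstream of Ffar4 was shared by alpha and delta cells. The region 5.34 kb upstream, at chr19:38091483-38092026, had a fold enrichment of 8.82 in delta 1 and 6.16 in delta 2, of 2.25 in alpha 1 and 4.67 in alpha 2, and of 1.8 in beta 1. Both delta values exceeded both alpha values, and the peak of alpha 1 was not strong. The region 9.66 kb upstream, at chr19:38087264-38087553, had a fold enrichment of 5.97 in alpha 1, 4.67 in alpha 2, 7.32 in delta 1, 2.90 in delta 2, and 3.21 in beta 3. Here the delta libraries were the highest and the lowest of the 5, so the region did not separate the cell types. Its 5 summits lay within 34 bp.

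The other 5 regions called in at least 2 libraries were weaker or divided. In the intron of Pde6c 25.8 kb upstream of Rbp4, 5 libraries had peaks with a fold enrichment of 3.0 to 4.40, and the peak of alpha 2 alone was strong. Between Cep55 and Ffar4, the region 19.03 kb upstream of Ffar4 had 4 peaks, and the delta 1 peak alone was strong (fold enrichment 5.73). The region 16.3 kb upstream of Ffar4 and the one 5.94 kb downstream of its start had 2 peaks each, none of them strong. The last lay across the lower edge of the locus. There a peak of beta 1 with a fold enrichment of 2.70 was a member, and a peak of alpha 1 with a fold enrichment of 6.0 ended 58 bp before the edge and was not. At the upper edge, the nearest peaks were both of beta 1, 937 bp inside and 7535 bp outside, with a fold enrichment of 1.8 each.

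**Figure D4:**
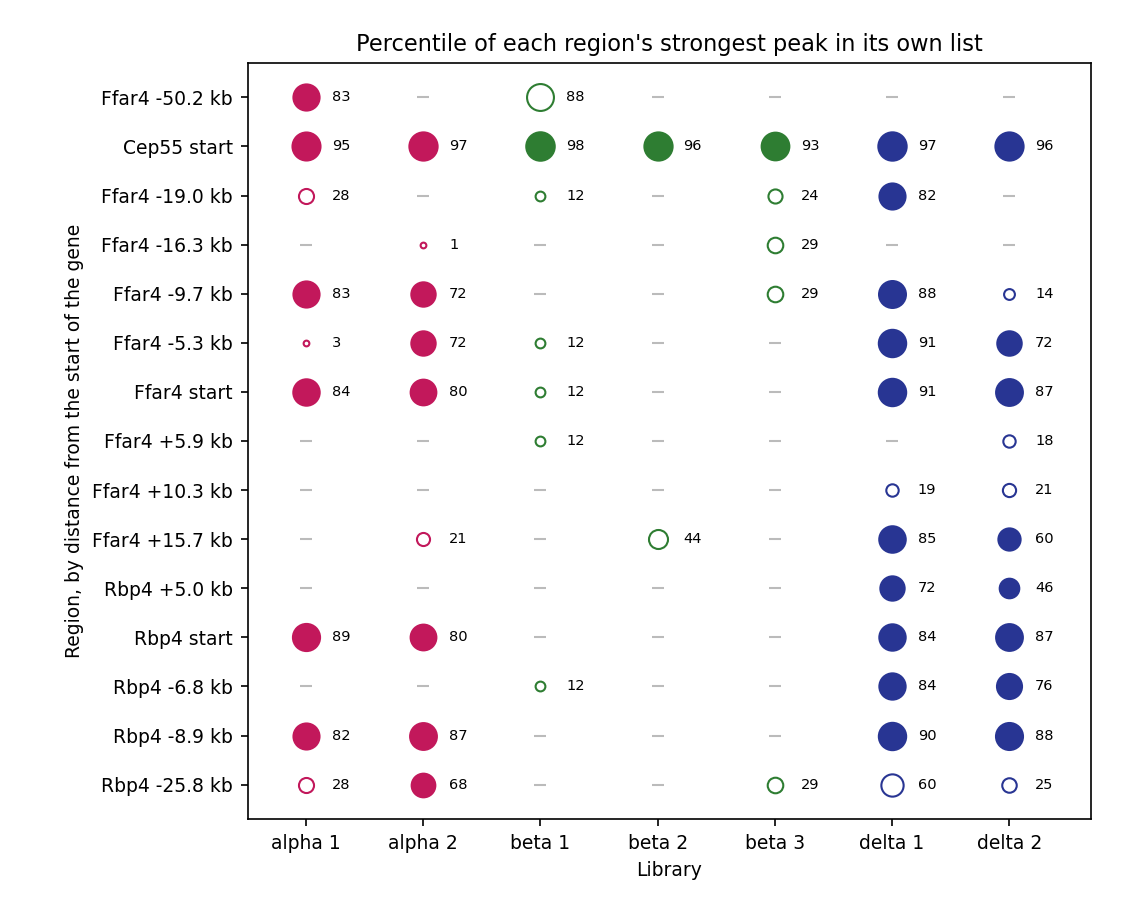
Percentile of the strongest peak of each region in its own list, for the 15 regions called in at least 2 libraries (rows, named by the distance of the strongest summit from the start of the gene, negative upstream) and the 7 libraries (columns). Circle area and the number give the percentile, filled circles are strong peaks (-log10 q of 2 or more), and a dash is no peak. The rows at the start of Rbp4 and 8.9 kb upstream of it are filled in both alpha and both delta columns and empty in beta, and those in the introns of Rbp4 and of Ffar4 (15.7 kb) and 6.8 kb upstream of Rbp4 are filled in delta columns only.

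Rbp4 and Ffar4 were much alike in the ranks of their TSS peaks. With 0 for a missing peak, the percentiles of the 2 genes differed by 3.36 on average over the 7 libraries. By this measure Ffar4 was the 3rd most similar of 21910 genes to Rbp4, and Rbp4 the 11th most similar to Ffar4. The 2 genes were picked with earlier results of these same calls known, so the ranks are a description only. Whether the 2 genes are regulated together was not tested. Close to Rbp4 were also Fmo4 (mean difference 3.35), Gpr83 (3.47), and Kirrel (3.56), and the 5 genes closest to Ffar4 were Rrp7a (1.15), Hsd3b7 (1.74), Spag5 (1.92), Pheta1 (2.21), and Gpr83 (2.21). The other genes named lie on other chromosomes than Rbp4 and Ffar4.

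The retinoid pathway moves retinol from carrier proteins through uptake receptors and oxidising enzymes to retinoic acid receptors. None of 25 genes of that pathway had TSS peaks in exactly the libraries of Rbp4 or in those of Ffar4, patterns held by 0.493% and 1.36% of all genes, so that 0 of 25 says little about the pathway. Between 7 and 16 of them had a TSS peak in a library, and 5 to 9 had a strong one, with 7 and 9 in alpha, 5, 5, and 6 in beta, and 6 and 9 in delta libraries. These are smaller shares of the list than the 37.9% to 56.0% of all protein-coding genes with a strong TSS peak in a library. Ttr, which encodes the partner of RBP4 in the blood, had strong peaks in both alpha and both delta libraries and in no beta library. Its fold enrichment was 6.47 and 5.50 in alpha, 4.69 and 4.65 in delta, and 2.68 and 3.68 in beta 1 and beta 3. By fold enrichment both alpha values were thus above both delta values, the reverse of the order at Ffar4. The percentiles did not keep this order, with 85.0 and 77.92 in alpha, 77.95 and 59.8 in delta, and 86.2 and 62.9 in beta 1 and beta 3.

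Among the enzymes, Lrat, which stores retinol as esters, and Rdh10, which oxidises it, had strong TSS peaks in all 7 libraries. Aldh1a3, which makes retinoic acid, had strong ones in beta 1, beta 3, and delta 2. Of the receptors, Rxrg had strong peaks in all 7 libraries and Rarg in 5. Rara had no peak in any library within 1 kb of its outermost annotated 5' end, and its other transcript starts were not searched. Among the other retinol binding proteins, Rbp2 had no TSS peak in any library. The retinol receptor genes Stra6 and Stra6l had a weak peak in beta 1 and no peak, respectively.

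Receptors and carriers for fatty acids and related ligands were described in the same way, and 0 of 11 such genes had TSS peaks in the libraries of Ffar4. With 1.36% of all genes in that pattern, a list of this size would hold none or hardly any by its length alone. Among the 5 delta cell markers, Hhex and Ghsr, the ghrelin receptor gene, had TSS peaks in exactly the libraries of Ffar4. Ffar1, the receptor for long-chain fatty acids best known from beta cells, had TSS peaks in 4 libraries, and the peak of alpha 1 alone was strong, with a fold enrichment of 4.0. Of the short-chain fatty acid receptors, Ffar2 had a strong peak in beta 3 alone (3.73), and Ffar3 had a weak peak in alpha 2 (2.82). Gpr119, a receptor for lipid amides, and Cnr1, a cannabinoid receptor gene, had strong peaks in all 7 libraries. Of the 4 genes of the Ffar family, Ffar4 was the only one with a strong TSS peak in both delta libraries. It was also the only one with a strong TSS peak in both alpha libraries.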

How the data were processed

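Peak lists of 7 ATAC-Seq libraries on GRCm38 (mm10) were used, and the cell type and replicate of each were taken from its label. Trimmomatic, Bowtie 2, and Picard were used by the authors to trim the single-end reads, to align them to a genome without mitochondrial DNA, and to mark duplicates. After removal of blacklist regions, they ran MACS2 on each library by itself. The MACS2 threshold is not given in the sources used here. The -log10 p and -log10 q values, the fold enrichment at the summit, and the score, which was not used further, were deposited as MACS2 wrote them. The lists themselves hold no read depth, so no interval or detection limit was computed. Uniquely mapped reads per library are given in the study's supplement.

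Intervals that a list repeats were counted once, with the summit of highest -log10 p. The lists then held 131151 and 111961 alpha, 518503, 91089, and 103935 beta, and 158066 and 75860 delta peaks. Peaks were merged at an overlap of 1 bp and annotated with GENCODE M21. A merge with bedtools 2.31.1 gave 0 differing regions. The steps were tested on simulated data. Sequences are from RefSeq (GRCm38.p6), whose promoter table held both members. No test was run. The members, gene lists, motifs, and markers were chosen with earlier results of these data known. Named genes were the 2 members, the genes in the window, the 2 pathway lists, and the 5 genes most like each member, of which some are not reported here. As alternatives, the minimum -log10 q was set to 2, and the 50000 strongest peaks of a list, coverage of 0.5 of a region, flanks of 25 and 100 kb, a 3-kb TSS window, any transcript start, and the lists without each library in turn were used. Python 3.11.15 with numpy 2.4.6, pandas 2.3.3, and matplotlib 3.10.9 was used.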

Additional observations from a re-analysis of the deposited data

How the results depend on the processing

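Of 132 values recomputed under an alternative, 102 were within 1.5 times of the reported ones. No result came from a test, so each is a count or a value with 2 or 3 libraries per cell type. The number of regions called in at least 2 libraries was 9 for peaks of -log10 q 2 or more and 24 with a flank of 100 kb. Regions in both alpha and both delta libraries and no beta library numbered 2 to 4 as single libraries were left out, with 4 without beta 1 and 4 without beta 3. Regions in alpha libraries alone numbered 0 to 3, with 1 without alpha 1 and 3 without alpha 2, where a lone alpha library is left and a single call suffices. Regions in all 7 libraries numbered 0 when peaks had to cover 0.5 of a region, 0 with a flank of 25 kb, and 2 with a flank of 100 kb. The share of genes with the TSS pattern of Rbp4 was 1.86% without beta 1, 1.22% without beta 3, 0.854% without delta 2, 1.36% with 50000 peaks per list, and 0.320% in a 3-kb window. Rbp4 had a TSS peak in 5 libraries in that window or around any transcript start. No paired analysis was run, since no result comes from a test and the labels do not say which libraries share mice.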
